A study of Homo sapiens with 9 samples.

Results

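The data were examined for 9 growth-arrest target genes of the p53 pathway, CDKN1A, GADD45A, BTG2, PLK2, PLK3, GDF15, SESN1, MDM2 and MDM4, of 30545 genes in the table. They were taken by name, as all entries whose RefSeq identifier belonged to these symbols, and duplicate entries of a gene (equal in length and in every value) entered once. This left 16 distinct 3′ intervals from 33 entries, and all 9 genes passed the filters on low values of both measurements.

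The measurements were SLAM-Seq, in which 4-thiouridine (4sU) is built into RNA made during a pulse, is alkylated, and is then read as C where the genome has T. The T>C conversion rate is the share of T positions read as C in the sequenced 3′ end of an mRNA and rises with the share of new transcripts. The reads of the same 3′ ends, scaled to library size (CPM), are used here as the measure of total mRNA. All libraries came from MCF10A, an established non-transformed human mammary epithelial line, here as JUN knockout (KO) cells infected with a JUN fused to an auxin-inducible degron (JUN-AID) and with a vector for TIR1, the plant receptor through which auxin directs the tagged protein to degradation.

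The 3 groups had 3 replicates each by their labels. The no 4sU control received no pulse, and its labels do not say whether DMSO was added. The DMSO 4sU group received DMSO, for a time that the labels do not state, and a 1 h pulse with 100 µM 4sU. The IAA 4sU group had the same pulse after 1 h in 100 µM indole-3-acetic acid (IAA), an auxin that depletes JUN-AID. The knockout, the fusion protein and TIR1 were common to all groups, so no library represented cells with the endogenous JUN. The 3 IAA columns were identical in all 56868 entries and were used as 1 library, with no test. The labels do not state that replicates were separate cultures, and p-values measure the spread between these libraries.

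p53 is a transcription factor that is held at a low level by the ubiquitin ligase MDM2 and its partner MDM4 and that accumulates when DNA, ribosomes or nucleotide pools are disturbed. It then activates genes that stop the cell cycle, above all the CDK inhibitor CDKN1A, and also MDM2 itself, which closes a feedback loop. Several of these mRNAs also respond to growth factors and to other stresses, and many mRNAs of this kind are short-lived. 4sU is a nucleoside analogue, so the comparison of labelled with unlabelled cells asks how the mRNAs of this stress pathway stood after the pulse.

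The libraries held 18997637 to 24014195 recovered reads. The 7 mammary epithelial markers summed to 1033 to 1231 CPM without 4sU, 1339 to 1378 CPM with DMSO and 4sU, and 1341 CPM in the IAA library. Among them KRT14 was low (mean 6.03 CPM without 4sU). The 3 fibroblast markers summed to 3.69 to 5.23 CPM without 4sU, 3.50 to 6.06 CPM with DMSO and 4sU, and 9.92 CPM in the IAA library. A single marker gave 9.82 CPM of the sum in the IAA library. Over all libraries the 3 leukocyte markers summed to at most 4.19 CPM with PTPRC and CD3E at 0, and the 3 endothelial markers to at most 1.08 CPM with CDH5 and VWF at 0. JUN mRNA was 48.1, 57.6 and 45.0 CPM without 4sU, 30.2, 20.3 and 25.6 CPM with DMSO and 4sU, and 62.9 CPM with IAA and 4sU. The degron acts on the protein, so JUN mRNA does not check the IAA label.

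AU-rich sequences in the 3′ untranslated region (UTR) are a known feature of short-lived mRNAs. The windows below show the sequence type in the 4 genes with the highest conversion rates, PLK2, GADD45A, BTG2 and PLK3, and in 2 genes with lower rates, GDF15 and MDM2, with the ATTTA pentamer in capitals. Each is 30 bases of the GRCh37 genome, given 5′ to 3′ on the strand of the gene, inside an annotated 3′ UTR whose length matched the interval of the table within 10 bases.
PLK2, chr5:57749893-57749922, minus strand: taataaactttttATTTAttacagcccaaa
PLK3, chr1:45271571-45271600, plus strand: atggaccacttttATTTAttgtcagacact
GDF15, chr19:18499863-18499892, plus strand: atataagtctgttATTTAttattaATTTAt
MDM2, chr12:69238541-69238570, plus strand: ttattttatttttATTTAttttttgagacg
GADD45A, chr1:68153723-68153752, plus strand: aaactatgtattaATTTAgaatggttgagt
BTG2, chr1:203276655-203276684, plus strand: taaatgaagagctATTTAtatatattattt

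The first 4 windows hold the longer form of the element, ATTTA with TT on each side, which was present in 4 of the 9 genes (PLK2, PLK3, GDF15 and MDM2) and in 8.24% of the 8664 tested genes with a matched UTR. Motifs were searched on the transcript strand, and overlapping matches were counted. Repeats were not masked, and the shares were not matched for UTR length, which was 5695 bases in MDM2. The UTRs of BTG2 and GADD45A held 2 pentamers each and not the longer form. The density of ATTTA had a median of 3.33 per kb in the 9 genes and 1.71 per kb in the tested genes, whose upper quartile began at 3.29 per kb. GDF15, with 20.7 per kb in a UTR of 241 bases, and PLK3, with 9.62 per kb in 312 bases, were the densest, while SESN1 (0.907) and BTG2 (0.924) were the sparsest.

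The promoters bear on the choice of genes, because p53 binds a response element made of 2 adjoining decamers. RefSeq promoter sequences (GRCh38.p14, 250 bases before to 50 after the start) were given for 8 of the genes, all but GADD45A. An element with both cores intact and at most 3 mismatches of 20 bases to the p53 response element consensus, which reads as itself on the other strand, was found in SESN1 and GDF15. Among 27305 genes with a promoter sequence, 143 (0.524%) held such a match. Elements outside this window, or with bases between the decamers, were not searched, so a gene without a match may still have an element. The capitals mark the match, which is a description of sequence and not a measured binding site.
SESN1, chr6:109009013-109009042, minus strand: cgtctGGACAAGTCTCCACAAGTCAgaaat
GDF15, chr19:18386178-18386207, plus strand: acctgcacAGCCATGCCCGGGCAAGAACtc

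Total mRNA, measured as CPM, was lower with 4sU for GADD45A and PLK2 and higher for no member by the test below. CDKN1A, MDM2 and GDF15 overlapped between the groups. Of the 9 genes, 2 passed the test downwards and 0 upwards, against a background of 1.66% of 11493 genes tested lower and 0% higher (limma, Benjamini-Hochberg adjusted p under 0.05). Upwards, the unadjusted p was under 0.05 for 327 of all genes and for 0 of the 9 members, while DESeq2 called 6 genes and edgeR 0, none of them a member. Downwards, the unadjusted p was under 0.05 for 866 genes, among them 6 members. The per-library levels below are those of the interval with most reads of each gene, in the order of replicates 1, 2 and 3, and the fold changes come from the gene's summed intervals. Fold changes are on the log2(CPM + 1) scale, which understates changes of low genes. In a bulk sample a change in the number of cells that express a gene cannot be told apart from a change in mRNA per cell. CPM counts reads, and whether labelled RNA was recovered as reads as fully as unlabelled RNA was not tested.

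**Figure D1:**
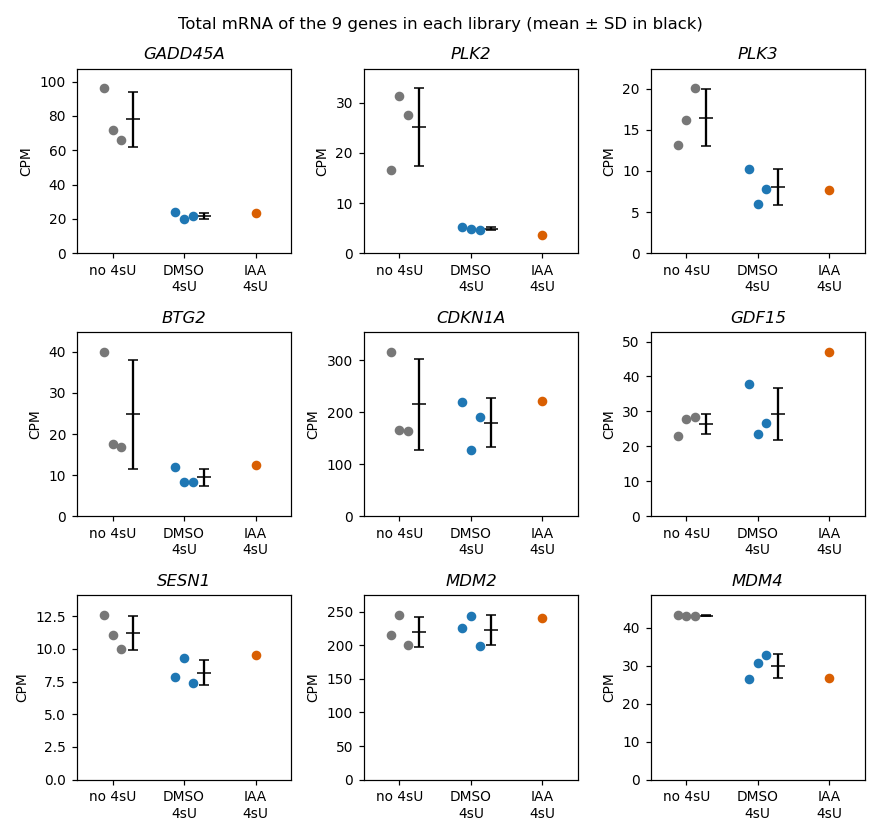
Total mRNA (CPM, y axis from 0, scaled per gene) of the 9 genes in each library without 4sU (grey), with DMSO and 4sU (blue) and with IAA and 4sU (orange, 1 library). Points are libraries and black bars the mean ± SD of 3. The labelled libraries of GADD45A sit between 20.1 and 23.8 CPM, below the lowest unlabelled library at 66.2 CPM, whereas those of MDM2 (199 to 244 CPM) cover the same range as the unlabelled ones (201 to 244 CPM).

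Among the arrest genes, GADD45A, a small stress protein that binds CDK1 and PCNA, had 96.1, 71.7 and 66.2 CPM without 4sU and 23.8, 20.1 and 21.6 CPM with DMSO and 4sU. The groups were far apart, and the mean was 72.0% lower. The log2 change was -1.83 (SE 0.16, limma, Benjamini-Hochberg adjusted p = 0.000747). BTG2, an antiproliferative protein that recruits the CCR4-NOT deadenylase, had 40.0, 17.5 and 16.8 CPM without 4sU against 11.9, 8.33 and 8.31 CPM with it. All labelled libraries were below all unlabelled ones, and replicate 1 was the highest library in both groups. The log2 change of BTG2, -1.23 (SE 0.29), missed the threshold (limma, Benjamini-Hochberg adjusted p = 0.0861) and passed it with the replicate number as a block (adjusted p = 0.0202) or with DESeq2 (adjusted p = 0.00117).

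CDKN1A, the p21 inhibitor of cyclin-dependent kinases and the best known arrest effector of p53, had 317, 165 and 164 CPM without 4sU and 220, 128 and 191 CPM with DMSO and 4sU. The groups overlapped, and the spread between replicates was larger than the difference. The log2 change of CDKN1A was -0.25 (SE 0.27, 95% interval -0.86 to 0.35, limma, Benjamini-Hochberg adjusted p = 0.803), so a rise beyond 0.35 lay outside the interval. CDKN1A, BTG2 and GADD45A were the 3 members in which replicate 1 was the highest library of both groups.

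The Polo-like kinases PLK2 and PLK3, which act in stress and checkpoint responses and not in the core of mitosis as PLK1 does, were measured from few reads. PLK2 had 16.5, 31.4 and 27.6 CPM without 4sU and 5.12, 4.87 and 4.58 CPM with DMSO and 4sU, from 92 to 117 reads a labelled library. The mean was 80.7% lower, the largest decrease among the 9 genes. Its log2 change was -2.14 (SE 0.25, limma, Benjamini-Hochberg adjusted p = 0.00322). PLK2 lost the call when replicate 2 or replicate 3 was left out (adjusted p = 0.0598 and 0.0717, log2 changes -1.96 and -2.01). PLK3 had 13.2, 16.2 and 20.1 CPM against 10.3, 6.04 and 7.82 CPM. The libraries of PLK3 did not overlap, and the log2 change of -0.99 (SE 0.24) missed the threshold (limma, Benjamini-Hochberg adjusted p = 0.0880, DESeq2 adjusted p = 0.00656).

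GDF15 and SESN1 lead away from the cell cycle. GDF15 encodes a secreted stress cytokine of the TGF-β superfamily, and its mRNA was at 23.0, 27.8 and 28.4 CPM without 4sU and at 37.8, 23.5 and 26.7 CPM with DMSO and 4sU. Only replicate 1 of the labelled group was above the unlabelled libraries. The log2 change of GDF15 was 0.09 (SE 0.21, 95% interval -0.37 to 0.56, limma, Benjamini-Hochberg adjusted p = 0.912), and it was -0.27 without replicate 1. SESN1, a leucine sensor that restrains mTORC1, had 12.6, 11.0 and 10.0 CPM against 7.85, 9.29 and 7.42 CPM. The SESN1 groups did not overlap, but the log2 change of -0.44 (SE 0.17) did not pass the test (limma, Benjamini-Hochberg adjusted p = 0.386).

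The feedback inhibitors differed in their values. MDM2, the ubiquitin ligase of p53, had 215, 244 and 201 CPM without 4sU and 226, 244 and 199 CPM with DMSO and 4sU. These ranges were nearly the same, and the log2 change was -0.02 (SE 0.16, 95% interval -0.37 to 0.34, limma, Benjamini-Hochberg adjusted p = 0.986). MDM4, which masks the activation domain of p53 and pairs with MDM2, had 43.4, 43.2 and 43.0 CPM against 26.4, 30.7 and 32.8 CPM. The unlabelled libraries of MDM4 spread by only 0.203 CPM (SD), and the labelled ones were all lower, with a log2 change of -0.56 (SE 0.15, limma, Benjamini-Hochberg adjusted p = 0.137). MDM4 passed with DESeq2 (adjusted p = 0.0246) and without replicate 1 (limma, adjusted p = 0.0258).

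In 6 of the 9 genes (GADD45A, PLK2, BTG2, PLK3, MDM4 and SESN1) all libraries with DMSO and 4sU lay below all libraries without 4sU, a pattern found in 9.17% of all genes tested. The opposite order was found in 0 of the 9 genes and in 10.3% of all genes. The IAA library, which also received 4sU, lay below all unlabelled libraries for the same 6 genes. With 1 library this order is easier to meet, and its share over all genes is not given here. This count is therefore not read as a trait of the members. Same-numbered libraries deviated together in total mRNA, but differently numbered ones were not compared, so a pairing by number is not shown. With the block, 3 members passed (GADD45A, PLK2 and BTG2), with a background of 1.78% of all genes. DESeq2 on the recovered reads called 5 members lower (these 3, PLK3 and MDM4), with a background of 3.55%. Without replicate 1, limma called the same 5 genes, and without replicate 2 or 3 it called GADD45A alone.

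The conversion rate rose in every member with 4sU. All 9 genes passed the test upwards, with a background of 48.9% of 10860 genes, and in all 9 the lowest DMSO 4sU library was above the highest unlabelled one. This background includes genes with fewer reads than the members, and a share among genes of similar read depth is not given here. The count is therefore not read as a trait of the members. The size of the rate split the genes into 4 with rates of at least 2.91% in each DMSO 4sU library (PLK2, GADD45A, BTG2 and PLK3) and 5 at or below 1.04% (GDF15, CDKN1A, SESN1, MDM4 and MDM2). The rates of these 2 sets did not overlap, whereas within each set the ranges of neighbours in the order of mean rates overlapped.

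**Figure D2:**
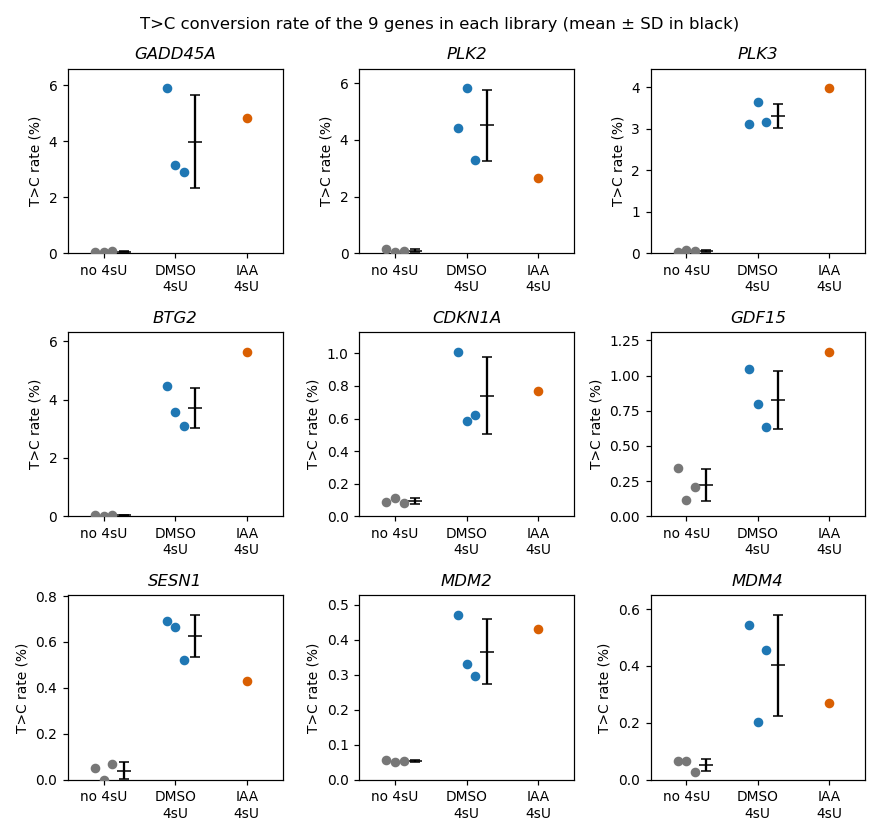
T>C conversion rate (%, y axis from 0, scaled per gene) of the 9 genes in each library without 4sU (grey), with DMSO and 4sU (blue) and with IAA and 4sU (orange, 1 library). Points are libraries and black bars the mean ± SD of 3. Every labelled library is above every unlabelled one, with mean rates from 4.52% in PLK2 down to 0.366% in MDM2.

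Of the 4 genes with high rates, PLK2 had 0.159%, 0.0431% and 0.0578% without 4sU and 4.42%, 5.82% and 3.30% with DMSO and 4sU (4.52% ± 1.26, SD, n = 3). GADD45A had 0.0542%, 0.0474% and 0.0661% against 5.88%, 3.14% and 2.91% (3.98% ± 1.65, SD, n = 3). Both were the genes whose total mRNA fell past the threshold. BTG2 had 0.0536%, 0.0232% and 0.0440% against 4.47%, 3.57% and 3.10% (3.71% ± 0.693, SD, n = 3). PLK3 had 0.0188%, 0.0649% and 0.0492% against 3.12%, 3.64% and 3.17% (3.31% ± 0.288, SD, n = 3). The mean rates were thus 92.2-fold (BTG2), 74.8-fold (PLK3), 71.1-fold (GADD45A) and 52.1-fold (PLK2) above the background of the unlabelled libraries. The log2 changes of log2(rate + 0.0005) were 5.38 for BTG2, 5.21 for GADD45A, 5.18 for PLK3 and 5.12 for PLK2 (limma, Benjamini-Hochberg adjusted p = 0.000626, 0.00089, 0.000696 and 0.00133).

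Among the 6979 genes with at least 200 reads on average, whose median rate was 0.206%, PLK2 ranked 15th from the top, GADD45A 23rd, BTG2 27th and PLK3 34th. Their percentiles in this ranking were 99.8, 99.7, 99.6 and 99.5. The average was taken over the 6 libraries of both groups. PLK2 (92 to 117 reads a DMSO 4sU library), PLK3 (145 to 219) and SESN1 (149 to 223) passed it through their higher reads without 4sU. The filter is therefore not independent of the change in total mRNA, and ranks among genes filtered on labelled reads alone are not given here.

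The other 5 genes were labelled less. GDF15 had 0.345%, 0.115% and 0.205% without 4sU, the highest unlabelled rates of the 9 genes, and 1.04%, 0.798% and 0.632% with DMSO and 4sU, a 3.72-fold difference in means. CDKN1A had 0.0858%, 0.114% and 0.0822% against 1.01%, 0.583% and 0.624% (7.87-fold). SESN1 had 0.0517%, 0% and 0.0679% against 0.691%, 0.667% and 0.522% (15.7-fold). GDF15, CDKN1A and SESN1 ranked 358th, 439th and 612th from the top (percentiles 94.9, 93.7 and 91.2). The feedback inhibitors came last. MDM4 had 0.0652%, 0.0645% and 0.0265% against 0.545%, 0.202% and 0.458% (7.72-fold). MDM2 had 0.0553%, 0.0509% and 0.0538% against 0.471%, 0.329% and 0.297% (6.85-fold).

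MDM4 and MDM2 ranked 1275th and 1491st, above most genes (percentiles 81.7 and 78.7). The log2 changes of the rate were 2.996 for SESN1, 2.42 for CDKN1A, 1.99 for MDM2, 1.91 for MDM4 and 1.75 for GDF15 (limma, Benjamini-Hochberg adjusted p = 0.00348, 0.00407, 0.00373, 0.0307 and 0.0218). The rate calls of MDM4 and GDF15 were not kept with fewer replicates, and calls over all genes also became fewer with a replicate left out. MDM4 lost its call without replicate 1 or 3 (adjusted p = 0.173 and 0.151), and GDF15 without any 1 of the replicates (adjusted p = 0.0584 to 0.119). MDM4 has 7 distinct intervals, of which 5 are at most 161 bases long, and with its interval of most reads alone its log2 change was 2.08 (limma, Benjamini-Hochberg adjusted p = 0.00955).

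Replicate 1 of the DMSO 4sU group had the highest rate in 7 of the 9 genes, all but PLK2 and PLK3. The median rate over all genes was also the highest in this library, 0.267% against 0.197% and 0.200% in replicates 2 and 3. The part of this library-wide difference in the members' rates was not tested.

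High labelling and low total mRNA with 4sU went together within the 9 genes. The 4 genes with high rates had log2 changes of total mRNA from -2.14 to -0.99, and the other 5 from -0.56 to 0.09, with no overlap. Spearman's rho between the mean rate with DMSO and 4sU and the change in total mRNA was -0.77 over the 9 genes. It was -0.43 over the 6979 genes with at least 200 reads on average. Both are descriptions across genes, which are not independent, and the labelled libraries enter both axes. The filter on reads averaged unlabelled and labelled libraries, so it is not independent of the change either. The longer AU-rich form was found in both sets. PLK2 and PLK3 of the highly labelled genes hold it, BTG2 and GADD45A do not, and GDF15 and MDM2 of the others do. Its relation to the rate was not tested.

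**Figure D3:**
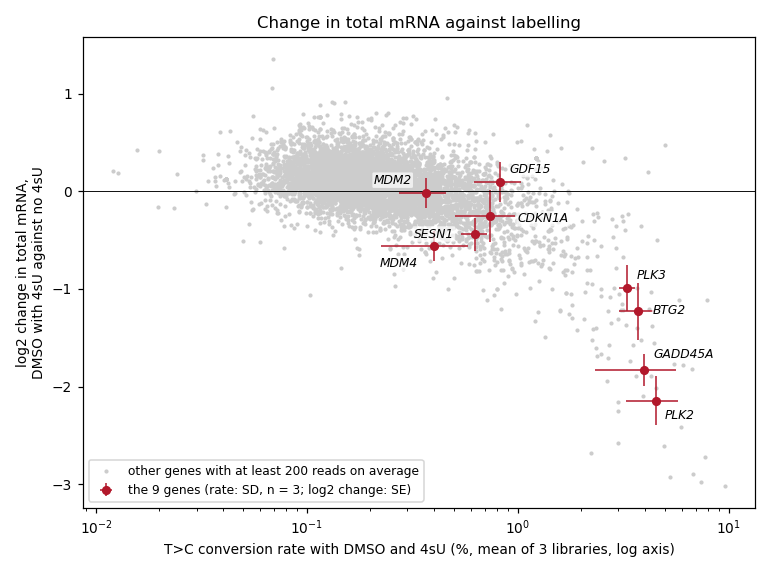
Mean T>C conversion rate with DMSO and 4sU (%, log x axis) against the log2 change in total mRNA between DMSO 4sU and no 4sU (y axis). Red points are the 9 genes, with horizontal bars for the SD of 3 libraries and vertical bars for the SE, and grey points are other genes with at least 200 reads on average. PLK2, GADD45A, BTG2 and PLK3 lie at the lower right, with rates of 3.31% to 4.52% and log2 changes of -0.99 or lower.

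The rest of the pathway was compared by lists. Of 24 other p53 targets, such as genes of apoptosis and DNA repair, 0 fell and 0 rose (limma, adjusted p under 0.05), with a median log2 change of -0.05 and a range of -0.87 to 0.52. The 9 members had a median of -0.56, with 8 of 9 below 0, and all 11493 genes had a median of 0.04, with 43.6% below 0. The other targets with the highest level were RPS27L, a ribosomal protein paralogue, with a log2 change of 0.38 (SE 0.21), and ZMAT3, an RNA-binding growth regulator, with 0.16 (SE 0.16), neither past the test (limma, Benjamini-Hochberg adjusted p = 0.607 and 0.786). DESeq2 called 2 of the 24 lower, with a background of 3.55% of all genes. These were BBC3 (log2 change -0.88, DESeq2 adjusted p = 0.00918) and SESN2 (-0.76, DESeq2 adjusted p = 0.0355), both named after their values were seen. Conversion above background was found in 21 of the 24 (limma, adjusted p under 0.05), against 48.9% of 10860 genes. This share is not matched for read depth, so the count is not read as a trait of the list.

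Of 16 regulators of p53 activity, 1 fell and 0 rose, with a median log2 change of 0.11. The 1 that fell was EP300, an acetyltransferase and coactivator of p53, with a log2 change of -1.32 (SE 0.22, limma, Benjamini-Hochberg adjusted p = 0.0166), and this call was lost without replicate 2 or 3 (adjusted p = 0.234 and 0.205). Of 12 cell cycle genes that are repressed after arrest, 0 passed in either direction, with a median of 0.02. Among them CDK1, the mitotic kinase, had a log2 change of -0.09 (SE 0.21) and CCNA2, cyclin A2, of -0.12 (SE 0.21, limma, Benjamini-Hochberg adjusted p = 0.918 and 0.883).

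Immediate early genes are those that growth factors and stress induce within minutes. Of 12 tested out of 15, 7 fell and 0 rose, with a median log2 change of -1.16. The phosphatase DUSP1 (-3.02), the transcription factors MYC (-2.93) and KLF6 (-2.41) and IER2 (-1.58) changed the most (limma, Benjamini-Hochberg adjusted p = 0.000261, 0.00153, 0.000542 and 0.0112). Of 12 genes of the integrated stress response, which ATF4 directs, 1 fell and 0 rose, with a median of -0.08. It was DDIT4, an inhibitor of mTORC1 that p53 and glucocorticoids also induce (log2 change -2.72, SE 0.18, limma, Benjamini-Hochberg adjusted p = 0.000261). With the replicate block 2 of the 12 fell, the second being DDIT3, the transcription factor CHOP, named here after its values were seen (log2 change -1.10, limma, Benjamini-Hochberg adjusted p = 0.0286 with the block and 0.125 without). The block left 7 immediate early genes lower, with EGR1 (adjusted p = 0.0140) in place of JUN (adjusted p = 0.0511), both also named after their values were seen. The lists were counted and not tested against each other.

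The comparison of IAA with DMSO, both with 4sU, asks how the pathway stood after JUN depletion, and has 1 IAA library against 3. The part in it of the higher fibroblast marker sum in the IAA library, 9.92 CPM with 9.82 CPM from a single marker, was not tested. A gene was counted as changed where the difference from the DMSO mean reached 1 log2 unit and the value was outside the DMSO range, after centring rates on each library's median and scaling total mRNA by TMM (trimmed mean of M values). In total mRNA, 0 of the 9 genes were counted as changed (0.201% of 11437 genes), and 3 lay outside the DMSO range (41.4% of all genes). These were GDF15 at 47.1 CPM (difference 0.61 on the log2 scale), PLK2 at 3.59 CPM (-0.42, from 72 reads) and MDM4 at 26.7 CPM (-0.24). As deposited, without TMM, MDM4 was inside the DMSO range, and CDKN1A, BTG2 (12.5 CPM) and SESN1 (9.57 CPM) were slightly above it. CDKN1A at 221 CPM and MDM2 at 241 CPM differed from the DMSO mean by 0.24 and 0.03, and GADD45A at 23.1 CPM by 0.00.

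In the conversion rate, 1 of the 9 genes was counted as changed (MDM4, -1.08), against 21.5% of 11738 genes, and 5 lay outside the DMSO range, against 49.5% of all genes. MDM4 was 0.269% in the IAA library, and with its interval of most reads alone it lay inside the DMSO range, with a difference of -0.57. With the interval of most reads, 4 members lay outside the range and 0 were counted as changed. BTG2 was higher with IAA, at 5.64% (centred log2 difference 0.45), and GDF15 too, at 1.17% (0.35). PLK2, at 2.64% (-0.88), and SESN1, at 0.428% (-0.65), were lower. These 4 differences ran in both directions and each was below 1 log2 unit. GADD45A at 4.82%, CDKN1A at 0.769% and MDM2 at 0.432% were inside the DMSO range (0.19, -0.07 and 0.08). PLK3, at 3.98%, was above the 3 DMSO libraries as deposited and inside their range after centring (0.11).

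**Figure D4:**
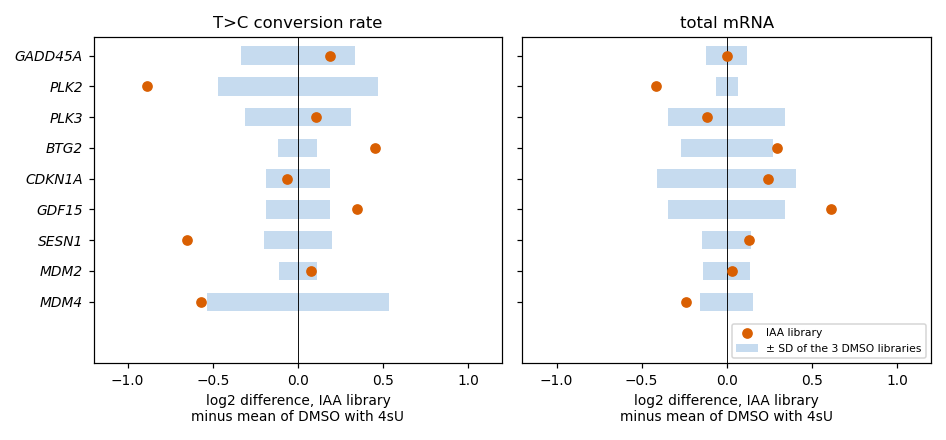
Log2 difference of the IAA library from the mean of the 3 DMSO 4sU libraries (x axes) in the T>C conversion rate (left, centred on library medians) and in total mRNA (right, TMM scaled), for the interval with most reads of each of the 9 genes. Orange points are the IAA library and blue bars span ± 1 SD of the DMSO libraries. GDF15 is above these bars in both panels (0.35 and 0.61) and PLK2 is below them in both (-0.88 and -0.42).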

How the data were processed

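SLAM-Seq libraries (QuantSeq 3′, single-end) were processed by the authors with the nf-core slamseq Nextflow pipeline. Tool versions are not given in the sources used here, and the submitters' processing notes name hg19. The deposited table holds, for each RefSeq 3′ interval and library, the conversion rate, a fraction without background subtraction, and reads scaled to library size. The deposited CPM column is a signal and not strict CPM, since an interval shared by several transcripts is listed with its reads for each. Whole reads were recovered from 100% of the values (tolerance 0.01). Per-sample columns left unused numbered 0.

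RefSeq identifiers were named through a RefSeq gene table (GRCh38.p14, names only; 91.0% of entries matched, 90.7% by accession), and unmatched entries were kept as features of their own. A gene had several distinct intervals in 17.4% of cases, and then reads were summed, which can count a read more than once where intervals overlap, and rates averaged. UTR sequences came from the GENCODE annotation of GRCh37.

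Total mRNA of the DMSO 4sU and no 4sU libraries was compared with limma (3.58.1, R 4.3.3) on log2(CPM + 1) with TMM library sizes, for genes with a CPM of at least 1 in at least 3 of 6 libraries. Rates were compared with limma on log2(rate + 0.0005), for genes with nonzero rates in 3 or more libraries. Both used trended, robust variances and Benjamini-Hochberg adjustment over all genes tested. The deposited rates come without coverage, so no interval per rate could be given. Fits of the recovered reads with DESeq2 (1.42.0) and with edgeR (4.0.16), other pseudocounts and filters, a replicate block, left-out replicates and the added IAA library were alternatives. edgeR with the block was added after seeing the data. The fits were tested on simulated data, where the rate test called more unchanged genes than its aim among genes with few reads. All 9 genes also passed it with at least 200 reads on average over both groups required.

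Same-numbered libraries deviated together in total mRNA (r = 0.390, 0.312 and 0.364 over 11493 genes). Differently numbered libraries were not correlated, so these values cannot show that the numbers pair the libraries. The labels do not state a pairing, and the replicate block assumes one by number. Rates of same-numbered libraries did not deviate together (r = 0.0194, 0.00133 and -0.00107 over 10579 genes). Because the 3 IAA columns are identical, differences from the DMSO libraries replaced a test, for genes above the filter in at least 2 of 4 libraries. The members and lists were chosen with earlier results of these data known. Named besides the 9 genes were, per list, up to 4 genes past the threshold with the largest change, otherwise the 2 with the highest mean CPM, and the 5 genes most like the members.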

Additional observations from a re-analysis of the deposited data

How the results depend on the processing

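The directions of GADD45A, PLK2, BTG2, PLK3, MDM4, SESN1 and CDKN1A in total mRNA and of all 9 rates were the same in every alternative run. The count of genes lower with 4sU, 191, was 408 with DESeq2, 336 with the IAA library added to the labelled group, and 28 to 459 with a replicate left out, the most without replicate 1 and the fewest without replicate 2. Members lower, 2, were 5 with DESeq2, 5 with the IAA library added, and 1 to 5 with a replicate left out. With the replicate block, 205 genes and 3 members were lower, and the block changed no other member's call in total mRNA. For rates, where same-numbered libraries did not deviate together, the block gave 4239 in place of 5311 genes and 8 of 9 members (MDM4 adjusted p = 0.0530, limma). Genes with a higher rate were 2290 to 2830 with a replicate left out. MDM4's rate call was also lost without a filter on low values (adjusted p = 0.0516, limma). Changes near 0 turned: MDM2 from -0.02 to 0.019 as deposited without TMM. With a replicate left out, MDM2 ranged from -0.12 to 0.015, GDF15 from -0.27 to 0.28, CDK1 from -0.19 to 0.048 and CCNA2 from -0.22 to 0.013. For IAA against DMSO, genes counted as changed in rate fell from 2527 to 823 with at least 200 reads on average, and members from 1 to 0 with this filter, without centring, with a pseudocount of 0.0001 or with the interval of most reads. In total mRNA, 23 genes became 73 with a pseudocount of 0.25 and 13 to 103 with a DMSO replicate left out, the most without replicate 1. The causes of these moves were not tested. No paired analysis was possible because the IAA columns are 1 library of unknown replicate number. PLK2 had the fewest reads, which limits its rates.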

Other observations

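The members' total mRNA was averaged into 1 profile over the 7 libraries, as the mean of their centred log2(CPM + 1) values. The profile was 0.53, 0.41 and 0.36 without 4sU, -0.21, -0.47 and -0.40 in the DMSO 4sU libraries, and -0.22 in that of IAA. Of 7204 other genes with a mean CPM of at least 10, the most similar were NFKBIA, the inhibitor of NF-κB (Pearson's r = 0.996), SNHG1, a snoRNA host gene (0.992), ID1, an inhibitor of DNA-binding factors (0.990), CCNL2, a cyclin linked to splicing (0.989), and EXPH5, a Rab effector (0.987). All 5 had higher log2(CPM + 1) means without 4sU than with DMSO and 4sU, from 8.10 against 5.24 in NFKBIA to 4.24 against 3.81 in EXPH5. The 7 libraries share the groups, so genes that differ between labelled and unlabelled libraries resemble each other by this measure.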
